A study of Mus musculus with 16 samples.

Results

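The genes that make, break down and bind hyaluronan, together with versican and lubricin, were followed in tail tendon fascicles of wild type mice and of mice lacking Vhl in the Scx lineage. The 10 members were taken by name, in a choice made with earlier results of these data known. They are the hyaluronan synthases Has1, Has2 and Has3, the hyaluronidases Hyal1 and Hyal2, the hyaluronan-depolymerising protein gene Cemip and the receptor Cd44. The others are the hyaluronan-binding genes Vcan and Tnfaip6, and Prg4, which encodes lubricin. All 10 were found among the 25719 genes counted, and all 10 were among the 14803 genes that passed the filter on low counts. The 16 libraries comprise 8 labelled WT, from mice described as wild type, and 8 labelled KO, from ScxCre;Vhlf/f mice, in which Cre recombinase driven by the tendon gene Scx recombines the floxed Vhl gene in Scx-lineage cells. The labels used here give no age, sex or strain, and do not say whether the wild type mice carry a floxed allele or Cre. Each library holds RNA of all cells of the dissected, frozen and ground fascicles. Nothing ties a library to a separate animal by name, so p-values measure the spread between these libraries, which may be partly technical.

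Hyaluronan is a long, unsulfated sugar polymer that is extruded through the plasma membrane by the synthases, which join UDP-glucuronic acid and UDP-N-acetylglucosamine. Versican, a large chondroitin sulfate proteoglycan of the lectican family, binds hyaluronan through its N-terminal end, and small link proteins lock the complex. Lubricin is a mucin-like glycoprotein that coats gliding surfaces, among them the surfaces of tendons and of the fascicles within them. VHL marks hydroxylated HIF1α and HIF2α for degradation, so its loss stabilises these transcription factors at normal oxygen.

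The 8 knockout libraries held 10488355 to 18753254 counts each and the 8 wild type libraries 10792900 to 16379401. Levels are given as CPM, counts divided by the library size and expressed on the usual common scale, with library sizes scaled by the trimmed mean of M-values (TMM). The floor of 3 counts corresponded to 0.146 to 0.256 CPM for the knockout libraries and 0.209 to 0.336 CPM for the others. Vhl was at 14.1 to 25.8 CPM in wild type and at 7.51 to 10.9 CPM in knockout libraries, so every library followed its label. Wild type library 3 stood apart in the summed level of 10 tenocyte markers, at 137600 CPM, where the other wild type libraries had 236700 to 387500 CPM. Skeletal muscle markers summed to 3998 CPM in wild type library 5 and to between 5843 and 7679 CPM in knockout libraries 6, 7 and 8, and to at most 1127 CPM in the other 12. Erythroid markers (5 of 5 tested) and mural markers (4 of 7, 1 lower) rose, as did 1 of 10 muscle markers, 2 of 5 tested Schwann cell markers and the only adipocyte marker tested, and both tested keratinocyte markers fell. Scx itself ranged from 54.6 to 1033 CPM in wild type and from 56.2 to 1251 CPM in knockout libraries, and stood apart as high in wild type library 8 and knockout libraries 5, 6 and 8. None of the 10 tenocyte markers was at 0 throughout a genotype, 7 fell and Comp rose. Among all tested genes, 25.6% rose and 22.7% fell by the threshold given below.

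Of the 10 members, 2 rose in the knockout (Cd44 and Has1), 3 fell (Prg4, Hyal1 and Has2) and 5 did not pass the threshold, an adjusted p under 0.05 in edgeR's quasi-likelihood test with adjustment over all tested genes. Among all tested genes 48.3% passed, 25.6% higher and 22.7% lower, so the members passed about as often as genes at large. The median log2 fold change of the members was -0.20, beside 0.02 for all tested genes. All knockout libraries were above all wild type libraries for Cd44, as for 10.8% of tested genes, and below them for Prg4 and Hyal1, as for 8.61% of tested genes. Without wild type library 3 and the 4 libraries with high Scx, 2 members rose and 2 fell, and without the 4 libraries with the most muscle RNA 2 rose and 4 fell. In bulk tissue, fewer cells of a type and less RNA per cell cannot be told apart, and this holds for every level below.

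**Figure D1:**
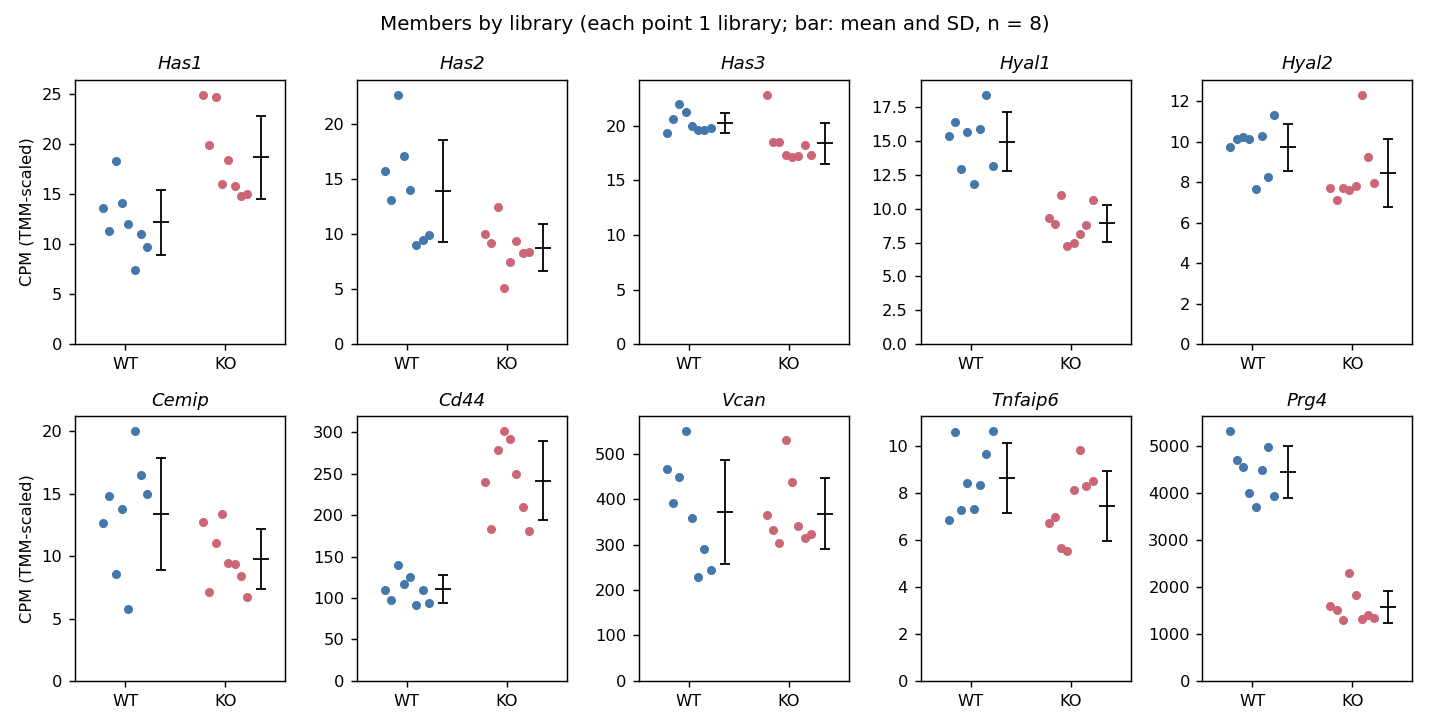
TMM-scaled CPM (vertical axis, from 0) of the 10 members in the wild type (WT, blue) and knockout (KO, red) libraries, 1 point per library, with the mean and SD (n = 8) as a black bar. Prg4 and Hyal1 lie lower in every knockout library and Cd44 higher in every one, while Vcan spreads over the same range in both genotypes.

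The 3 hyaluronan synthases went different ways. Has1 (ENSMUSG00000003665, chromosome 17) was at 7.43 to 18.3 CPM in the wild type libraries, with a median of 11.6, and at 14.8 to 24.9 CPM in the knockout libraries, with a median of 17.2. It rose 1.53-fold, from 12.2 ± 3.26 to 18.7 ± 4.15 CPM (SD, n = 8), with overlap between the groups (log2 fold change 0.61, SE 0.159, edgeR, adjusted p = 0.00372). Wild type library 3, at 18.3 CPM, was higher than 4 of the 8 knockout libraries, and the next wild type library reached 14.15 CPM.

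Has2 (ENSMUSG00000022367, chromosome 15), the synthase that mouse development depends on, went the other way. It lay at 9.03 to 22.6 CPM in the wild type libraries, with a median of 13.6, and at 5.06 to 12.5 CPM in the knockout libraries, with a median of 8.75. The mean fell from 13.9 ± 4.62 to 8.75 ± 2.13 CPM, 1.59-fold (log2 fold change -0.67, SE 0.191, edgeR, adjusted p = 0.00742, n = 8). Wild type libraries 6, 7 and 8, at 9.03 to 9.95 CPM, lay within the knockout range. The call was lost when libraries were scaled by total counts (-0.39, adjusted p = 0.113) and with the macrophage and leukocyte score as a covariate (-0.27, adjusted p = 0.278), in the same edgeR test. It was also lost without wild type library 3 and the 4 libraries with high Scx (-0.55, edgeR, adjusted p = 0.0608), and narrowly without the 4 libraries with the most muscle RNA (-0.66, edgeR, adjusted p = 0.0505). Its exons share 182 bases with the antisense gene Has2os, and the strand setting of the counting is not given in the sources used here.

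Has3 (ENSMUSG00000031910, chromosome 8) was at 19.3 to 21.9 CPM in the wild type libraries and at 17.1 to 22.8 CPM in the knockout libraries. Its difference of -0.14 did not pass the threshold (SE 0.0647, edgeR, adjusted p = 0.0799, n = 8). All knockout libraries but 1 were at or below 18.5 CPM, under every wild type library, and knockout library 1 was at 22.8 CPM, above them all. Without knockout library 1 the difference was -0.19 and passed the threshold (adjusted p = 0.00636), and with total counts it was 0.16 (adjusted p = 0.105). Exons of Has3 share 352 bases with Chtf8 on the opposite strand.

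With TMM scaling, the synthases together gave about the same signal in both genotypes, with a changed make-up. With total counts the log2 fold changes were 0.89 for Has1, -0.39 for Has2 and 0.16 for Has3, and the sum was not computed on that scale. The summed level of Has1, Has2 and Has3 was 46.3 ± 8.54 CPM in wild type and 45.8 ± 7.22 CPM in knockout libraries (SD, n = 8). Divided by exon length, Has1 made up 29.2% ± 2.48 of the synthase signal in wild type and 45.3% ± 3.41 in knockout libraries. Has2 made up 35.0% ± 4.43 and 22.6% ± 3.44, and Has3 35.7% ± 5.91 and 32.1% ± 3.31, in the same order. The ratio of Has1 to Has2 counts within a library does not depend on how libraries are scaled. It was 1.68 to 3.16 in the knockout, with a median of 2.07, and 0.810 to 1.17 in the wild type, with a median of 0.859, so the groups did not overlap.

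Has1 and Has2 varied together across libraries of a genotype, most clearly in the wild type, although they differed in opposite directions between the genotypes. After subtraction of each genotype's mean log2 CPM, their correlation over the 16 libraries was 0.80 (Pearson; permutation within genotypes, p = 0.00034, adjusted over 45 pairs of members 0.0153) and 0.79 (Spearman; p = 0.00062, adjusted 0.0279). Without wild type libraries 3 and 6, the farthest from the median of Has1, r was 0.68. Within the wild type alone r was 0.93 (rho 0.98; exact permutation p = 0.000694 and 0.000397, adjusted over 90 relations 0.0424 and 0.0357, n = 8) and 0.90 without the same 2 libraries. Within the knockout alone r was 0.61 (rho 0.55; exact permutation p = 0.106 and 0.171, n = 8) and 0.14 without libraries 1 and 3, on which it rests. Of the 45 pairs, 2 passed the adjustment by Pearson's r. The other was Has1 with Has3, at 0.63 (adjusted permutation p = 0.0401), or 0.60 by Spearman's rho (adjusted permutation p = 0.195), and 0.64 without the 2 farthest libraries.

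Of the 3 members that break hyaluronan down, Hyal1 fell, and Hyal2 and Cemip did not pass the threshold. Hyal1 (ENSMUSG00000010051, chromosome 9), a lysosomal hyaluronidase, lay between 11.8 and 18.4 CPM in the wild type libraries and between 7.23 and 11.02 CPM in the knockout libraries. It fell from 15.0 ± 2.16 to 8.93 ± 1.37 CPM without overlap between the groups (1.68-fold lower, log2 fold change -0.75, SE 0.107, edgeR, adjusted p = 8.73e-06, n = 8). The value is uncertain because 50.8% of the exon length of Hyal1 is shared with Naa80 on the same strand. Hyal2, its neighbour on the same chromosome, encodes a hyaluronidase anchored at the cell surface, and no exon of it overlaps another gene. It was at 7.68 to 11.3 CPM in the wild type and at 7.14 to 12.3 CPM in the knockout, a difference of -0.20 (95% interval -0.44 to 0.04) that did not pass (edgeR, adjusted p = 0.160). Knockout library 6 was the highest of all 16 in Hyal2, and without it the difference was -0.30 (edgeR, adjusted p = 0.0131).

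Cemip, whose product binds hyaluronan and drives its depolymerisation outside lysosomes, was the most variable of these genes. It spread from 5.76 to 20 CPM in the wild type libraries and from 6.71 to 13.3 CPM in the knockout libraries. Means were 13.4 ± 4.47 and 9.77 ± 2.43 CPM (SD, n = 8), and the difference of -0.46 (95% interval -0.89 to -0.02) did not pass after adjustment (edgeR, adjusted p = 0.0773). Without wild type library 5, the lowest of its group, it was -0.57 and passed (edgeR, adjusted p = 0.00959). It also passed without wild type library 3 (-0.54, adjusted p = 0.0394) or knockout library 4 (-0.53, adjusted p = 0.0479), and with the macrophage and leukocyte score as a covariate (-0.64, adjusted p = 0.0347). It was smaller, and did not pass, with total counts (-0.13, adjusted p = 0.537) and after adding the muscle marker score to the fit (-0.26, adjusted p = 0.310), all in edgeR.

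Cd44, the main cell-surface receptor for hyaluronan, rose. Its level (ENSMUSG00000005087, chromosome 2) was 91.5 to 139.8 CPM in the wild type libraries, with a median of 109.6, and 181 to 301 CPM in the knockout libraries, with a median of 245. Every knockout library was above wild type library 3, the highest of its group. The mean rose from 110.6 ± 16.6 to 242 ± 47.1 CPM (SD, n = 8), or 2.19-fold, a log2 fold change of 1.13 (SE 0.118, edgeR, adjusted p = 1.66e-07). On a scale of CPM per kb of exon, Cd44 moved from 16.3 to 35.7. The exons of Cd44 overlap no other annotated gene. The counts are per gene, so the standard and variant forms of the receptor were not separated.

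Leukocytes and endothelial cells also carry Cd44, and some of their markers differed between the genotypes. Among all tested genes 48.3% passed the threshold, 25.6% higher and 22.7% lower. Of 10 macrophage and leukocyte markers 4 rose (Ptprc, Adgre1, Cd14 and Lyz2, by 0.41 to 0.87 on the log2 scale) and none fell, with summed levels of 1145 to 1634 CPM in wild type and 1314 to 1881 CPM in knockout libraries. With their score as a covariate the log2 fold change of Cd44 was 1.11 (edgeR, adjusted p = 1.28e-05). Of 10 endothelial markers 7 were tested and 5 rose, and the summed level was 30.6 to 50.2 CPM in wild type and 38.2 to 499 CPM in knockout libraries. No marker of either list was at 0 throughout a genotype. The part of endothelial cells in the Cd44 result was not tested.

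The promoters of Cd44 and of 3 other genes that rose (Has1, and Ugdh and Hapln1, described below) are shown because hypoxia-inducible factors bind DNA at elements with the core ACGTG or GCGTG. The sequences are the 250 bases upstream of the transcription start in RefSeq's annotation of GRCm38.p6, a build older than the GRCm39 named in the submitters' processing notes. They are read 5′ to 3′ on the gene's strand, and capitals mark each core, which on the other strand reads CACGT or CACGC. The windows are chr2:102901666-102901915 (minus strand) for Cd44, chr17:17855189-17855438 (minus) for Has1, chr5:65435843-65436092 (minus) for Ugdh and chr13:89540386-89540635 (plus) for Hapln1.
Cd44: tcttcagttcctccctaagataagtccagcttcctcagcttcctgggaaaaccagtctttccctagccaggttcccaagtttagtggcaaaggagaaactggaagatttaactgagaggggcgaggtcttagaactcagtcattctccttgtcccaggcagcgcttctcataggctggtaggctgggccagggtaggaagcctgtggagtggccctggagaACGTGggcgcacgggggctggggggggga
Has1: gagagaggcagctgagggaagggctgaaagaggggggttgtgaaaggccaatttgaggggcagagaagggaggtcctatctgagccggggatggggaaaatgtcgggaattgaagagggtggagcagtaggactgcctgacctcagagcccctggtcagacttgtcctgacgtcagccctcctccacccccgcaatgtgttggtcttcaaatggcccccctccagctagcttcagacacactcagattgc
Ugdh: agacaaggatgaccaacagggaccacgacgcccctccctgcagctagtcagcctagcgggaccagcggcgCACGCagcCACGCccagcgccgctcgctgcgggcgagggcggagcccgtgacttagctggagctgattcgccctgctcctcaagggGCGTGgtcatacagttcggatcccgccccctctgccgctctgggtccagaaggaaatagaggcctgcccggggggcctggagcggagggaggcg
Hapln1: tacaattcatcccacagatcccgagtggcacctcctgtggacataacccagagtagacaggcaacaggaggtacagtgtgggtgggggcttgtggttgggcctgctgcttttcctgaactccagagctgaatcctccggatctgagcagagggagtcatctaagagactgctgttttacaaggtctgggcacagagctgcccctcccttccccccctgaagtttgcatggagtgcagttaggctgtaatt
The Cd44 window holds 1 core, which begins 29 bases before the start, and the Ugdh window holds 3, at 180, 172 and 94 bases before it. The Has1 and Hapln1 windows hold none of these letters. A core was found in 38.6% of the 32851 windows of this length in the table. Windows were matched for 7 of the 10 members and Cd44's was the only one of the 7 with a core. Has2, Has3 and Prg4 had no entry. Of 41 pathway genes with a window, 20 had a core. The 20 included genes that rose, such as Ugdh, Chst11 and Xylt2, and genes that fell, such as Dse and Chst12. Genes without a core likewise included some that rose, such as Acan, Hmmr and Layn, and some that fell, such as Itih2, Hapln3 and Bcan. Whether a core goes with the direction of change was not tested. A match describes letters in the window, not a bound site.

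Versican had nearly equal means in the genotypes, 372 ± 114 CPM in wild type and 368 ± 77.7 CPM in knockout libraries (SD, n = 8), and its difference did not pass the threshold. Vcan (ENSMUSG00000021614, chromosome 13) lay between 228 and 549 CPM in the wild type libraries, with a median of 375, and between 304 and 531 CPM in the knockout libraries, with a median of 336. Wild type libraries 6, 7 and 8 were the lowest of all 16, at 228 to 290.5 CPM, and wild type library 4 was the highest. The fitted difference was -0.01 on the log2 scale (SE 0.172, edgeR, adjusted p = 0.951, n = 8). Its 95% interval, from 0.77-fold to 1.27-fold of the wild type, holds for TMM scaling with genotype as the only term. With the macrophage and leukocyte score as a covariate the difference was 0.22 (edgeR, adjusted p = 0.436). With total counts the difference was 0.28 (edgeR, adjusted p = 0.180), on a scale on which the median of all tested genes was 0.32. Per kb of exon, versican stood at 25.7 CPM in wild type and 25.5 CPM in knockout libraries, above 91.5% and 91.7% of the tested genes. The splice forms of versican, which differ in the number of chondroitin sulfate attachment regions, were not separated by these counts.

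Tnfaip6 encodes TSG-6, which binds hyaluronan and transfers protein heavy chains onto it. It was low and did not pass the threshold, at 6.84 to 10.6 CPM in the wild type libraries and 5.54 to 9.83 CPM in the knockout libraries (log2 fold change -0.21, 95% interval -0.48 to 0.07, edgeR, adjusted p = 0.206). Counts of 61 to 194 per library stand behind these values. Without the 4 libraries with the most muscle RNA the difference was -0.41 and passed (edgeR, adjusted p = 0.0303).

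Lubricin gave the largest change among the members. Prg4 (ENSMUSG00000006014, chromosome 1) lay between 3697 and 5315 CPM in the wild type libraries, with a median of 4517, and between 1289 and 2300 CPM in the knockout libraries, with a median of 1457. The highest knockout library, number 4, was thus well below the lowest wild type library, number 5. The level fell from 4458 ± 551 to 1575 ± 343 CPM (SD, n = 8), which is 2.83-fold lower and a log2 fold change of -1.50 (SE 0.124, 95% interval -1.76 to -1.24, edgeR, adjusted p = 6.53e-09). Only 2.26% of the tested genes had a larger decrease. Per kilobase of exon, Prg4 was still among the most abundant transcripts of the knockout, at 368 CPM per kb against 1041 in the wild type, above 99.6% and 99.7% of the tested genes. Its exons share 204 bases, 4.77% of their length, with Tpr on the opposite strand.

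Markers of sheath and lining fibroblasts, a cell group that can carry lubricin, moved in both directions. Of the 8 markers 2 rose (Cd34 by 0.68 and Dpp4 by 0.65 on the log2 scale), Cd55 fell by 0.52, and 5 did not pass. Among all tested genes 48.3% passed. The summed level of the 8 markers was 1009 to 2017 CPM in wild type and 1254 to 1723 CPM in knockout libraries, with no marker at 0 throughout a genotype. The part of these cells in the Prg4 result was not tested. With the muscle marker score as a covariate, the log2 fold change of Prg4 was -1.42, and without wild type library 3 and the 4 libraries with high Scx it was -1.49.

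Within a library, the balance between the abundant members shifted, whatever the scaling. The ratio of Prg4 to Vcan counts was 7.30 to 19.7 in the wild type libraries and 3.91 to 4.57 in the knockout libraries. Prg4 exceeded Cd44 by 29.4 to 49.0 times in the wild type and by 4.63 to 8.30 times in the knockout, in counts not divided by length. The ratio of Vcan to Cd44 counts was 2.49 to 4.70 and 1.09 to 1.82. None of these 3 ratios overlapped between the genotypes. For Prg4 to Cd44 this follows from the 2 genes, which each had no overlap, in opposite directions. In the knockout, Prg4 and Vcan varied together (Pearson's r = 0.97, exact permutation p = 0.000943, adjusted over 90 relations 0.0424; Spearman's rho = 0.83, exact permutation p = 0.0154, adjusted 0.154; n = 8). Without knockout libraries 4 and 5, the 2 highest in both genes, r was 0.76. In the wild type r was 0.12 (rho 0.26; exact permutation p = 0.778 and 0.536, n = 8) and -0.14 without libraries 6 and 8, and the difference between the genotypes' correlations was not tested.

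**Figure D2:**
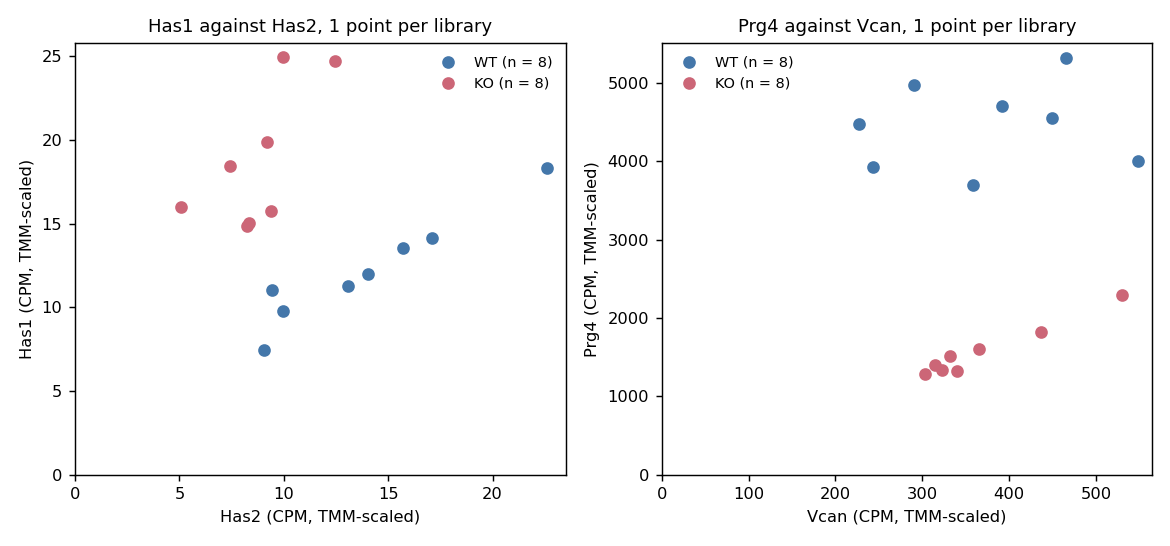
Left, Has1 against Has2, and right, Prg4 against Vcan, in TMM-scaled CPM on linear axes from 0, 1 point per library (wild type blue, knockout red, n = 8 each). In the left panel the knockout libraries lie above the line formed by the wild type libraries, and in the right panel they form a separate row at the level of 1289 to 2300 CPM of Prg4.

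The wider pathway was described by a list of 52 genes in 7 groups. Of these, 45 passed the filter on low counts, 20 rose, 14 fell and 11 did not pass the threshold. Thus 75.6% passed, where 48.3% of all tested genes did. Their median log2 fold change was 0.13, beside 0.02 for all tested genes, and 18 of the 45 did not overlap between the groups, where 19.4% of all tested genes did not. The list was chosen with earlier results of these data known. Its counts, and those of its 7 groups below, therefore describe the chosen genes only.

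Of the 8 genes that supply the sugar nucleotides, 3 rose and Gfpt2 fell, so 50% passed, beside 48.3% of all tested genes. Ugdh, which makes UDP-glucuronic acid from UDP-glucose, rose 2.43-fold, from 87.0 to 136 CPM in the wild type libraries to 184 to 338 CPM in the knockout libraries, without overlap (log2 fold change 1.28, SE 0.117, edgeR, adjusted p = 2.43e-08). Ugp2, which makes UDP-glucose, rose by 0.27 and Slc35d1, which carries UDP-sugars into the endoplasmic reticulum, by 0.19. The call of Ugp2 was lost with the macrophage and leukocyte score (0.24) or the muscle score (0.23) as a covariate, and that of Slc35d1 with DESeq2's Wald test (0.17). The ratio of Ugdh to Ugp2 counts was 0.984 to 1.23 in wild type and 1.69 to 2.55 in knockout libraries. On the hexosamine side, Gfpt2 fell by 0.38 (edgeR, adjusted p = 0.00940). Its call was lost with total counts (-0.09) and without wild type library 3 and the 4 libraries with high Scx (-0.34). Gfpt1 (-0.25), Gnpnat1 (-0.17), Pgm3 (-0.06) and Uap1 (-0.11) did not pass. Exons of Gnpnat1 and Styx share 81.9% of the length of Gnpnat1, so that value is uncertain.

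Of 5 further genes of hyaluronan breakdown, Cemip2 and Gusb rose and Hyal3 fell, so 60% passed, beside 48.3% of all tested genes. Cemip2, a cell-surface relative of Cemip, rose 1.78-fold without overlap between the groups (log2 fold change 0.83, SE 0.0986, edgeR, adjusted p = 8.16e-07), whereas Cemip itself had a difference of -0.46. Gusb, the lysosomal β-glucuronidase, rose by 0.41, and Hyal3 fell by 0.49. The call of Hyal3 was lost with total counts (-0.18) and with the macrophage and leukocyte score as a covariate (-0.48), and its exons overlap those of Hyal1 and Naa80. The other two did not pass.

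Among the 5 hyaluronan receptors beside Cd44, Lyve1 fell and Hmmr and Layn rose, so 60% passed, beside 48.3% of all tested genes. Lyve1, known from lymphatic endothelium and from tissue macrophages, was at 63.1 to 119 CPM in the wild type and at 28.3 to 47.3 CPM in the knockout (log2 fold change -1.43, SE 0.137, edgeR, adjusted p = 8.86e-08), without overlap. With the macrophage and leukocyte score described above as a covariate it was -1.50. The part of changes in cell make-up in the Lyve1 result was not tested further. Hmmr, which encodes a hyaluronan-binding protein of the mitotic spindle, rose by 2.26 from 1 to 16 counts per wild type library to 31 to 75 per knockout library. Hmmr passed the filter on low counts through the knockout libraries. Of 6 markers of cycling cells 5 rose beside it, where 25.6% of all tested genes rose. The summed level of these markers was 15.7 to 119 CPM in wild type and 92.8 to 274 CPM in knockout libraries, with none at 0 throughout a genotype. The part of cycling cells in the Hmmr result was not tested. Layn, a membrane lectin, rose by 0.69, a call that was lost with the macrophage and leukocyte score as a covariate (0.57). Stab1 (-0.09) and Stab2 (0.23), the endocytic receptors, did not pass.

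The link proteins and the other lecticans changed most. All 5 of the 7 that passed the filter also passed the threshold, without overlap between the groups. Hapln3 and Hapln4 had 2 to 14 and 0 to 5 counts per knockout library and passed the filter through the wild type libraries. Their calls and lack of overlap therefore follow in part from the filter, and the 5 are not read against the shares of all genes. Among all tested genes 48.3% passed, and 19.4% had no overlap. Hapln1, the cartilage link protein, was at 2.80 to 7.30 CPM in the wild type libraries and at 35.5 to 55.4 CPM in the knockout libraries, 9.99-fold higher (log2 fold change 3.32, SE 0.165, edgeR, adjusted p = 7.15e-12). Hapln3 fell by 2.97, from 3.12 to 6.63 CPM to 0.170 to 1.20 CPM. Hapln4, a link protein best known from the brain, fell by 5.22 (SE 0.422, edgeR, adjusted p = 6.08e-09), from 33 to 142 counts per wild type library to 0 to 5 per knockout library. With knockout counts this close to the floor of 3, the size of this fall is uncertain. Aggrecan (Acan) rose by 3.34, from 1.80 to 12.4 CPM to 29.0 to 105.7 CPM, and brevican (Bcan), otherwise a lectican of the nervous system, fell by 2.67, from 6.94 to 29.8 CPM to 1.26 to 3.86 CPM. Hapln2 and Ncan had at most 3 and 1 counts in any library and were not tested. Chondrocyte markers did not follow Acan and Hapln1 as a list. Of 5 tested, 1 rose (Sox9, by 2.34 on the log2 scale) and 2 fell (Matn3 by 4.02 and Chad by 2.02). Col2a1 (-0.64) and Col11a1 (-0.26) did not pass. Among all tested genes 25.6% rose and 22.7% fell. The summed marker level was 2258 to 3269 CPM in wild type and 919 to 1773 CPM in knockout libraries, with none at 0 throughout a genotype. Most of it came from Chad (means of 1588 CPM in wild type and 392 CPM in knockout) and Col11a1 (1047 and 872 CPM). The part of chondrocytes in the Acan and Hapln1 results was not tested.

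**Figure D3:**
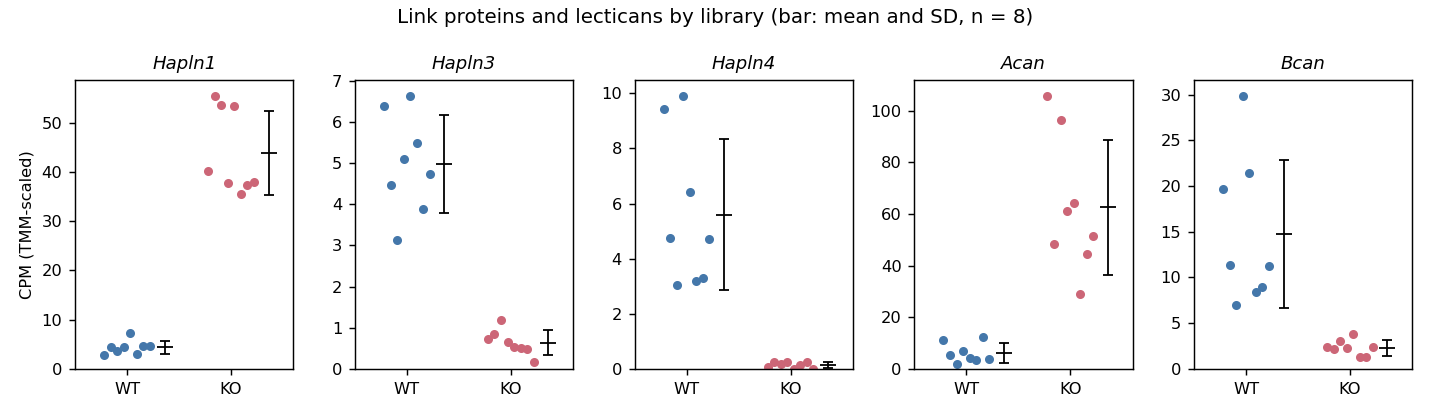
TMM-scaled CPM (vertical axis, from 0) of 3 link protein genes and 2 lectican genes by library, with the mean and SD (n = 8) as a black bar (WT blue, KO red). Hapln1 and Acan lie at 35.5 to 55.4 and 29.0 to 105.7 CPM in the knockout, above all wild type libraries, and Hapln3, Hapln4 and Bcan below all of them.

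Each link protein gene lies beside a lectican gene, with 0 protein-coding genes between them in RefSeq's annotation: Hapln1 beside Vcan on chromosome 13, Hapln3 beside Acan on chromosome 7, Hapln2 beside Bcan on chromosome 3 and Hapln4 beside Ncan on chromosome 8. Both genes were tested in the first 2 of these pairs, and neither pair moved together. Hapln1 rose 9.99-fold beside Vcan, which had a fold change of 0.990. Acan rose 10.1-fold beside Hapln3, which fell 7.83-fold. The count ratio of Hapln1 to Vcan was 0.0712 to 0.177 in the knockout libraries and 0.00602 to 0.0204 in the wild type libraries. Versican counts exceeded those of aggrecan 23.4 to 250.5 times in the wild type and 3.15 to 11.7 times in the knockout.

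Of the genes of heavy chain transfer, to which Tnfaip6 belongs, 2 of 7 were tested. Itih2, a heavy chain precursor, fell by 1.47 without overlap (SE 0.171, edgeR, adjusted p = 6.69e-07), from 100 to 169 counts per wild type library to 35 to 95 per knockout library. Itih5 had a difference of 0.27 (edgeR, adjusted p = 0.0474), and that call was lost in 20 of 29 alternative analyses. The other 5 were near the floor: Ambp and Itih3 had at most 2 and 1 counts in any wild type library and at most 4 and 5 in any knockout library, Itih1 at most 2 in any library, and Ptx3 and Itih4 at most 12 and 9.

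Proteases that cut versican and aggrecan split between the directions. Of these 6 genes 66.7% passed, 2 higher and 2 lower, beside 48.3% of all tested genes. Adamts4 rose 3.76-fold, from 7 to 22 counts per wild type library to 29 to 143 per knockout library, without overlap (log2 fold change 1.91, SE 0.291, edgeR, adjusted p = 1.97e-05). Adamts20 rose by 1.77, with overlap. Adamts5, the most abundant of these genes per kilobase in the wild type (14.0 CPM per kb), fell by 0.52, and Adamts15 by 0.43. Adamts1 (0.49) and Adamts9 (0.13) did not pass. With total counts, Adamts5 (-0.23) and Adamts15 (-0.11) did not pass. Of the 4 calls, that of Adamts4 alone held in all 29 alternative analyses, and that of Adamts20 was lost without wild type library 3 and the 4 libraries with high Scx (1.49, edgeR, adjusted p = 0.0558).

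Enzymes that build and sulfate the chondroitin sulfate chains of versican changed in 13 of 14 cases, 8 higher and 5 lower, where 48.3% of all tested genes changed, 25.6% higher and 22.7% lower. The largest increases were in Chst11, a chondroitin 4-sulfotransferase (1.14, adjusted p = 1.63e-05), Xylt1, which starts the chain (0.86, adjusted p = 8.28e-06), and Chst15, which adds the 6-sulfate to 4-sulfated units (0.83, adjusted p = 2.47e-05), all in the same edgeR test. The largest decreases were in Ust, a uronyl 2-sulfotransferase (-0.74), Chst12 (-0.61) and Dse, the epimerase that turns chondroitin into dermatan sulfate (-0.54). Adjusted p-values of the 3 lay between 4.37e-07 and 1.83e-05 (edgeR). Among the 8 that rose, Chpf2 (0.26) shares 44.1% of its exon length with Smarcd3, and Chst15 shares 17.9% with Gm10584. Both overlaps are on the opposite strand and the strand setting is not given, so these 2 values are uncertain. Of the 14, 7 had no overlap between genotypes: Xylt1, Xylt2 and Chst11 lay higher in every knockout library (10.8% of all tested genes did), and Ust, Chst12, Dse and Csgalnact2 lower (8.61% did). Chsy3 (0.02) did not pass. These enzymes serve all chondroitin and dermatan sulfate proteoglycans, not versican alone.

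**Figure D4:**
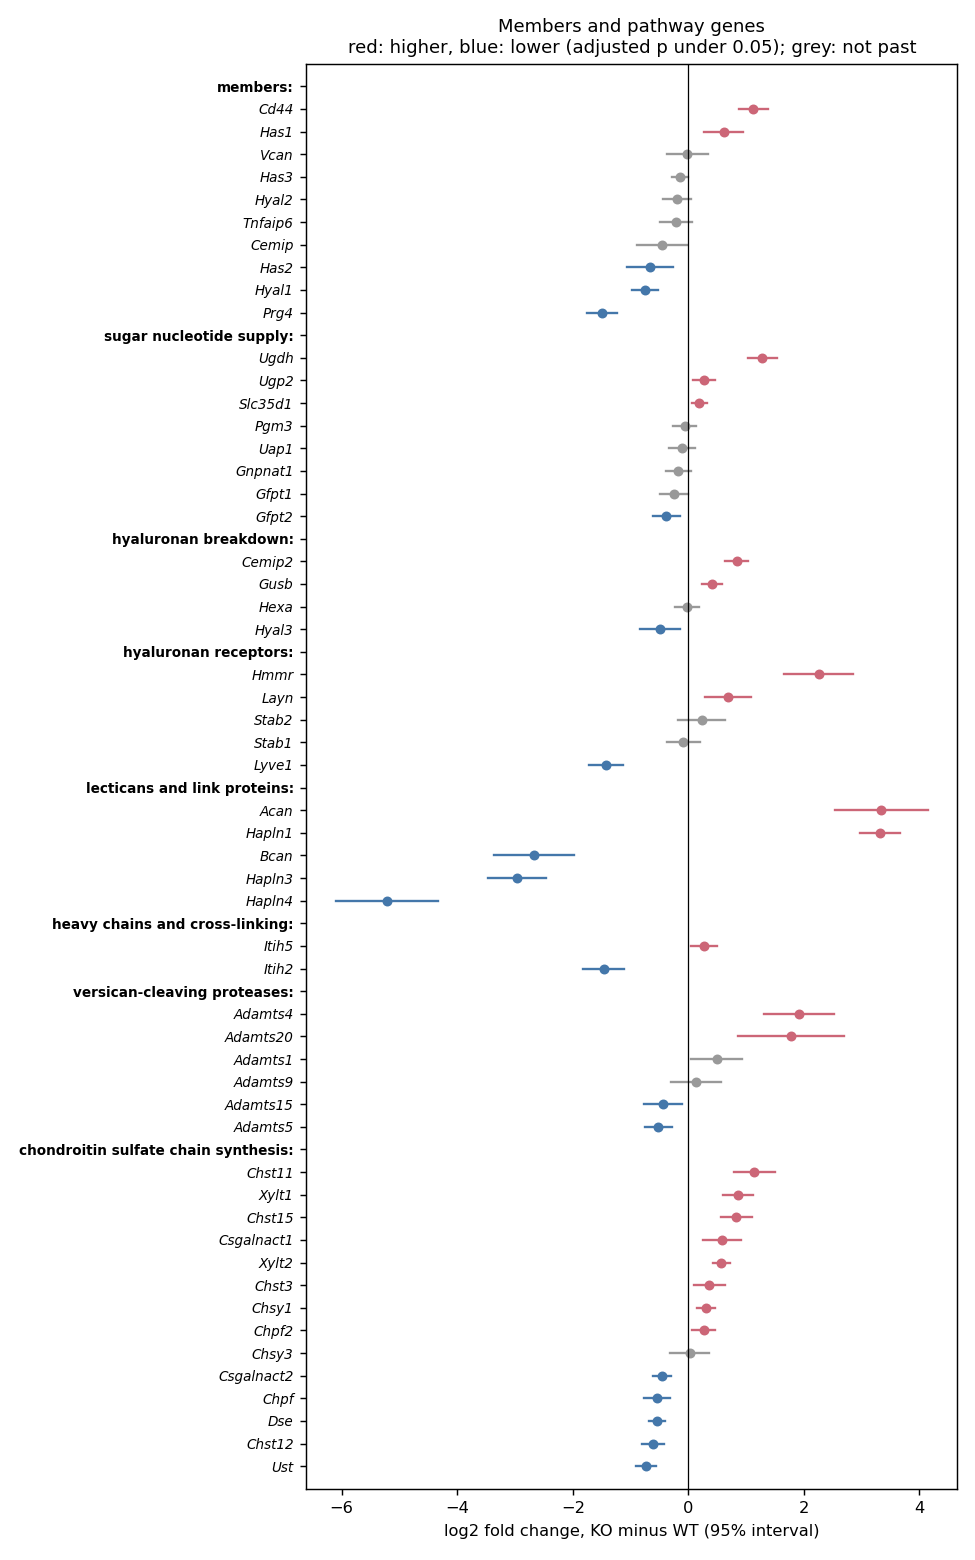
Log2 fold change between knockout and wild type (horizontal axis, positive where the knockout is higher) with its 95% interval, for the 10 members and the tested genes of the pathway list except 1, by group. Hapln1 at 3.32 and Hapln4 at -5.22 mark the ends of the link proteins, and Cd44 at 1.13 and Prg4 at -1.50 those of the members.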

How the data were processed

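RNA of mouse tail tendon fascicles was sequenced in 16 libraries, 8 per genotype, grouped by their titles. The deposited files hold raw counts per Ensembl gene. Per the submitters' processing notes, kallisto, featureCounts and the build GRCm39 were used. Versions, roles, annotation and strand setting are not given in the sources used here. Of 25719 identifiers, 25614 were matched to a symbol. Exon lengths, overlaps and chromosomes come from GENCODE M21 (GRCm38). Coordinates are given only for the promoter windows, on GRCm38.p6.

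Counts were fitted with edgeR 4.0.16 in R 4.3.3 (robust quasi-likelihood test, two-sided, TMM, default expression filter, genotype as the only term), with Benjamini-Hochberg adjustment over 14803 genes and a threshold of 0.05. Intervals are the fold change ± the t quantile times its SE. On simulated counts of 8 against 8 libraries with 14989 genes tested, 36 of 67 genes changed 1.5-fold, 67 of 67 changed 2-fold and 66 of 66 changed 3-fold were called. The simulation changed 200 genes, in both directions, with 1 spread set for all genes. Far more genes were called in the data, so its recovery need not carry over. No 2 libraries repeated each other (chi-square per degree of freedom at least 6.56). Log2 CPM used a prior count of 2.

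The members and lists were chosen with earlier results of these data known. Named were all members, and in each pathway group up to 3 genes past the threshold each way and genes at or under 3 counts in 1 genotype only. The report also gives values of other genes of the list, chosen after their values were seen. For each member, the 3 genes with the most similar log2 CPM within genotypes were also listed. Alternatives were DESeq2 1.42.0 size factors and its Wald test, total counts, TMM without the 20 most abundant genes, other filters, voom with quality weights of limma 3.58.1, a replicate block, score covariates and left-out libraries. Floors cover counting error only. The value of 1 pathway gene is not reported here, although the counts include it.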

Additional observations from a re-analysis of the deposited data

Results flagged for a closer look

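Within each genotype the lowest or highest of the 8 libraries was compared with its nearest neighbour by Dixon's criterion, for the 10 members, the tested pathway genes and Vhl. Of 112 checks 6 stood apart, where chance gives about 1 in 20, or 5.6. Among the members this was Has3 alone, whose level in knockout library 1 was 4.52 on the log2 CPM scale against 4.22 in the next highest. Wild type library 3 was the lowest of its group in Xylt2 (4.27 against 4.57) and Chpf (6.14 against 6.60) and the highest in Chst15 (5.90 against 5.17). Xylt2 was also lowest in knockout library 6 (5.14 against 5.22), and Gfpt2 in wild type library 2 (5.75 against 6.30). What sets these libraries apart was not tested.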

How the results depend on the processing

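Over 29 alternative analyses, 2 of them added after seeing the data, the direction and call of Prg4 (-1.60 to -1.19), Cd44 (1.08 to 1.42), Has1 (0.53 to 0.89), Hyal1 (-0.81 to -0.44) and Vhl (-1.21 to -0.82) held. Has2 (-0.76 to -0.27) lost its call in 4: total counts, the macrophage score, without wild type library 3 and the 4 libraries with high Scx (-0.55, edgeR, adjusted p = 0.0608) and without the 4 libraries with the most muscle RNA (-0.66, edgeR, adjusted p = 0.0505). Of 1102 gene values, 1033 kept direction and side of the threshold, 44 lost it, 9 gained it and 16 changed sign. Total counts moved the most: 8270 genes were higher and 1415 lower, 85.4% of calls higher against 53.0%, with 9 pathway genes lower and median 0.32. On that scale Has3 (0.16), Hyal2 (0.11), Vcan (0.28) and Tnfaip6 (0.10) changed sign. Vcan also did so with the replicate block (0.0226), the macrophage score (0.22), the Y-linked level (0.0073), without the 4 libraries with the most muscle RNA (0.0755) and without single libraries (-0.1082 to 0.0848), never past the threshold. Gfpt2, Hyal3 and Adamts5 lost their calls with total counts, as did Adamts15, whose call was lost in 10 analyses, 5 of them with 1 library left out. Hyal3 also lost its call with the macrophage score, and Gfpt2 without wild type library 3 and the 4 libraries with high Scx. Ugp2 lost its call with the muscle or macrophage score, Layn with the macrophage score and Slc35d1 with DESeq2's Wald test. Counts of members were 2 higher in all 29 and 2 to 4 lower.

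Same-numbered libraries shared a number only: correlations of their deviations ran from -0.43 to 0.42, over 0.1 in 3 of 8 pairs, and 1 of 8 knockout libraries correlated best with its own number. With the replicate block 7010 genes passed in place of 7151. Depth limits Stab2, Hmmr, Hapln3 and Hapln4 most among the tested genes of the lists, with 381 to 532 counts each over the 16 libraries, and Ncan, Hapln2, Itih1, Itih3, Itih4, Ambp and Ptx3 were too low to test.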

Other observations

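Genes whose levels followed a member most closely within genotypes, over the 16 libraries after subtraction of each genotype's mean log2 CPM, are given as a description, since the closest of 14803 genes are high by selection and share depth and scaling with the member. Prg4 was followed by Cabyr (Pearson 0.88, Spearman 0.88), Fam117b (0.82, 0.74) and Tmem63a (0.78, 0.77). Cd44 was followed by Capn2 (0.86, 0.85), Slco3a1 (0.86, 0.89) and Msn (0.86, 0.84), the last of which encodes moesin, a linker of membrane proteins to actin. Msn rose by 0.57 (edgeR, adjusted p = 8.28e-05) and Slco3a1 fell by 0.96 (edgeR, adjusted p = 1.39e-07), while Capn2 had a difference of -0.05 that did not pass (edgeR, adjusted p = 0.443). Has1 was followed by Fbxo27 (0.86, 0.89), Gm48015 (0.84, 0.76) and Akap5 (0.84, 0.81), and Has2 by Josd2 (0.87, 0.78), Kctd11 (0.86, 0.82) and Zfp7 (0.85, 0.89). Vcan was followed by Gm42651 (0.89, 0.92), Srebf2, a regulator of cholesterol synthesis (0.87, 0.82), and Ccdc134 (0.85, 0.84). The 3 closest genes of all 10 members had Pearson correlations between 0.78 and 0.91.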
